A study of Mus musculus with 36 samples.

Results

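The genes described here are 10 collagen genes of the mouse, of 29546 genes in the deposited table, measured in the livers of mice with experimental cholestasis, the condition in which bile cannot leave the liver. They were listed by name and by the type of structure their proteins build. The 5 fibrillar chains were Col1a1, Col1a2, Col3a1, Col5a1 and Col5a2. The 2 basement membrane chains were Col4a1 and Col4a2, the 2 beaded filament chains were Col6a1 and Col6a3, and the single fibril-associated chain was Col14a1. The study took livers of C57BL/6 mice in 9 groups of 4 and counted messenger RNA by sequencing of its 3' ends, 1 library per liver. BDL28 and BDL7 mice had the bile duct tied surgically, with the liver taken at day 28 or at day 7, and SHAM mice had sham surgery. DDC28 and DDC7 mice were fed the porphyrinogenic compound 3,5-diethoxycarbonyl-1,4-dihydrocollidine (DDC) at 0.1% of the diet by weight for 28 or 7 days, and CTLD mice ate a control diet. CsA28 and CsA7 mice received cyclosporin A, an immunosuppressant that impairs bile acid export, at 15 mg/kg in olive oil by oral gavage until day 28 or day 7, and VEHICLE mice received olive oil. The labels call the 7-day cholestatic groups acute and the 28-day groups chronic, and they give no day for the 3 control groups, so each control group was set against both days of its model. No group carries a genetic alteration, and whole liver tissue was used, so a lower number of collagen-producing cells and less collagen RNA per cell cannot be told apart.

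Collagens are assembled from 3 chains wound into a triple helix. Fibrillar collagens, with type I built from Col1a1 and Col1a2 chains and type III from Col3a1 chains, form the tensile fibres of scar, and type V chains sit inside those fibres and limit their width. Type IV chains form the sheet-like network of basement membranes, type VI chains form beaded filaments around cells, and type XIV collagen sits on the surface of fibrils. In the injured liver most fibrillar collagen is made by activated hepatic stellate cells and portal fibroblasts, which turn into contractile myofibroblasts, and its build-up is known as fibrosis.

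The libraries held 2081093 to 3770267 reads on genes, with a median of 2826073, and all values below are normalized read counts. Of the genes in the table, 12596 reached 10 normalized counts in at least 4 libraries and were tested with limma. All 10 collagens passed, but they did so in different ways. Col5a2 and Col6a1 did not reach 10 in any of the 12 control libraries (0 libraries each) and entered the test through cholestatic livers, so their place among the changed genes is partly set by the filter. Col5a1 reached 10 in 8 control libraries, Col6a3 in 9, and the other 6 genes in all 12. BDL28 replicate 1 stood apart before any comparison. It held the highest value of its group for all 10 collagens, from 2.11 times the mean of the other 3 livers for Col4a2 to 8.37 times for Col6a3. The median SD of the 10 genes on the log2 scale was 1.2 in BDL28, against 0.23 to 0.59 in the other 8 groups, and 0.31 over all tested genes of BDL28. Marker sums of other cell types moved with that library. The 13 hepatic stellate cell markers summed to 1853 in it and to 501 to 703 in the other 3 BDL28 livers. The 12 cholangiocyte markers summed to 3049, against 1058 to 1379, and the 12 portal fibroblast and mesothelial markers to 384, against 175 to 183. The part of these cells in its collagen values was not tested, and the BDL28 against SHAM value of each collagen is given below with and without this liver. For named genes of the pathway and marker lists, the value without it is given where the call changed.

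**Figure D1:**
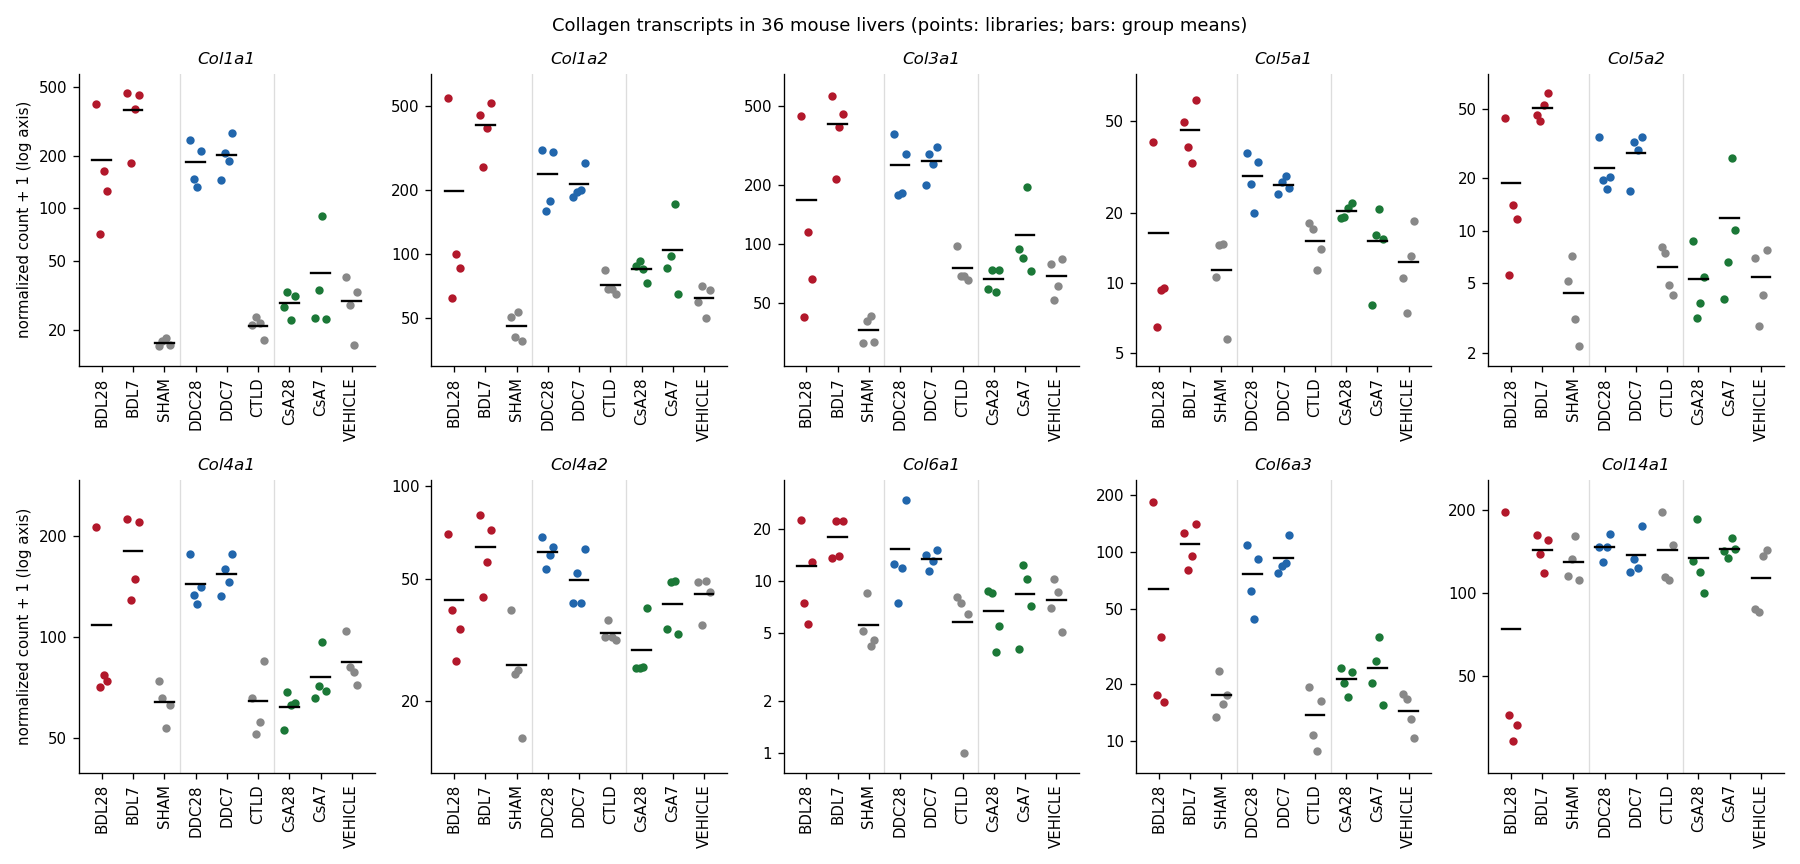
Normalized read counts plus 1, on a log axis, of the 10 collagen genes in each of the 36 livers. Points are libraries and bars are group means of 4. Col1a1 lay between 182 and 459 in BDL7 livers, against 15.1 to 16.8 in SHAM livers, and 1 BDL28 liver lay above the other 3 in every panel.

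Col1a1 gave the largest log2 fold change of the 10 genes in each ligation and diet comparison with controls. Col1a1 (ENSMUSG00000001506), the major chain of type I collagen, had 396, 69.8, 163 and 125 normalized counts in BDL28 livers. It had 459, 182, 372 and 451 in BDL7 livers and 15.1, 16.1, 16.8 and 15.4 in SHAM livers. No ligated liver of either day overlapped the SHAM livers, whose 4 values lay within 2 counts of each other. The log2 fold change was 4.35 ± 0.40 (SE) at day 7, a 20.5-fold difference (limma adjusted p = 1.35e-09), and 3.20 ± 0.40 at day 28 (adjusted p = 1.57e-07), where it was 2.75 without BDL28 replicate 1 (adjusted p = 6.45e-07). Under the DDC diet Col1a1 had 248, 147, 132 and 212 in DDC28 livers and 145, 209, 186 and 272 in DDC7 livers, against 20.3, 22.7, 20.9 and 16.4 in CTLD livers. The diet groups did not overlap their controls, and the log2 fold changes were 3.10 ± 0.40 at day 28 and 3.25 ± 0.40 at day 7 (adjusted p = 2.06e-07 and 1.53e-07).

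Col1a2 (ENSMUSG00000029661), the second chain of type I collagen, had 543, 61.6, 99.4 and 85.7 in BDL28 livers. It had 452, 256, 393 and 512 in BDL7 livers and 49.5, 39.7, 52.6 and 37.9 in SHAM livers. All ligated livers were above all SHAM livers, but 3 of the 4 BDL28 livers were closer to the SHAM livers than to any BDL7 liver. The log2 fold change was 3.11 ± 0.40 at day 7 (adjusted p = 4.7e-07) and 1.53 ± 0.40 at day 28 (adjusted p = 0.00243), where it was 0.84 without BDL28 replicate 1 (adjusted p = 0.00756). In the diet model it had 307, 159.5, 177 and 302 in DDC28 livers and 186, 196, 199 and 268 in DDC7 livers, against 83.1, 68.0, 67.9 and 64.4 in CTLD livers, again without overlap.

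Col3a1 (ENSMUSG00000026043), the only chain of type III collagen, had 445, 41.3, 114 and 65.4 in BDL28 livers. It had 562, 213, 389.9 and 453 in BDL7 livers and 30.3, 39.7, 42.1 and 30.8 in SHAM livers. The BDL7 and SHAM livers did not overlap, whereas the lowest BDL28 liver fell inside the SHAM range. The log2 fold change was 3.39 ± 0.44 at day 7 and 1.59 ± 0.44 at day 28 (adjusted p = 5.22e-07 and 0.0038), and the day 28 value was 0.92 without BDL28 replicate 1 (adjusted p = 0.0243). Under the diet it rose by 1.69 ± 0.44 at day 28 and 1.80 ± 0.44 at day 7 (adjusted p = 0.00185 and 0.00128).

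The promoters of Col1a2 and Col3a1 are printed because both genes rose in every ligation and diet group while the letters before their starts differ. RefSeq's mouse promoter table (GRCm38.p6) held 7 of the 10 genes. Each stretch runs 5' to 3' on the gene's own strand from 250 bases before the annotated start through the first 30 bases from it on, with the motif cores found in capitals. Col1a2 lies at chr6:4505368-4505647 on the plus strand, and Col3a1 at chr1:45311288-45311567 on the plus strand.
Col1a2: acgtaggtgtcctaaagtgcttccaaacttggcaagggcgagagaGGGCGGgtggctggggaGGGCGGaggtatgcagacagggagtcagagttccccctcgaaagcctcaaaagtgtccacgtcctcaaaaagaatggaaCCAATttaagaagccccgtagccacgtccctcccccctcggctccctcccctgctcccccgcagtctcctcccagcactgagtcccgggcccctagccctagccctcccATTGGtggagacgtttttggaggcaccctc
Col3a1: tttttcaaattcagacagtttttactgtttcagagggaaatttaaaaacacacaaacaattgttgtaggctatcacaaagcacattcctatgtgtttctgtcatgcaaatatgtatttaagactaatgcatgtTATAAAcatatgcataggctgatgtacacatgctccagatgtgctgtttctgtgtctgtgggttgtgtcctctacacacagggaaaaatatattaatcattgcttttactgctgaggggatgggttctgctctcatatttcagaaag
Windows of 300 bases were searched on both strands for the CCAAT box core CCAAT, the GC box core GGGCGG and the TATA box core TATAAA, which share no letters at any site found here. Col1a2 held CCAAT at base -109 and, on the opposite strand, at base 1 from the start, and GGGCGG at bases -205 and -188, whereas Col3a1 held neither and had TATAAA at base -117. Of all 32851 promoters of that length, 37.4% held CCAAT, 35.7% GGGCGG and 13.6% TATAAA. Among the 7 collagens with a sequence, 3 held CCAAT, 4 held GGGCGG and 1 held TATAAA. These are matches of letters and not evidence of binding.

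The type V chains were less abundant. Col5a1 had 39.4, 5.51, 8.36 and 8.57 in BDL28 livers. It had 48.5, 37.6, 31.9 and 60.3 in BDL7 livers and 9.63, 13.7, 13.7 and 4.74 in SHAM livers. At day 7 it was higher in every ligated liver, with a log2 fold change of 2.05 ± 0.37 (adjusted p = 3.79e-05). At day 28 the value was 0.21 ± 0.37 and did not pass (adjusted p = 0.674). It was -0.36 without BDL28 replicate 1 (adjusted p = 0.376) and -0.089 without SHAM replicate 4 (adjusted p = 0.876). Leaving out either liver thus changed its sign, and under quantile normalization it was -0.024. Col5a1 passed in the diet model at day 28 (log2 fold change 0.91 ± 0.37, adjusted p = 0.0385) and not at day 7 (0.82 ± 0.37, adjusted p = 0.0685), although the groups did not overlap at either day. The SE is shared by all groups of the fit and is not the spread of these livers. The SD of the log2 values of Col5a1 was 0.11 in DDC7 and 0.30 in CTLD livers, and 1.16 in BDL28 livers. That day 28 call was lost without any 1 of DDC28 replicates 1, 2 and 4 or CTLD replicates 3 and 4.

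Col5a2 had 43.3, 4.59, 13.0 and 10.7 in BDL28 livers. It had 45.1, 41.7, 51.8 and 60.3 in BDL7 livers and 4.13, 6.21, 2.1 and 1.19 in SHAM livers. It rose by 3.66 ± 0.49 at day 7 and 1.84 ± 0.49 at day 28, and by 1.29 at day 28 without BDL28 replicate 1 (adjusted p = 3.08e-07, 0.0025 and 0.0268). Against CTLD its log2 fold changes were 1.89 ± 0.49 at day 28 and 2.18 ± 0.49 at day 7 (adjusted p = 0.00162 and 0.000445). The size of each of these values depends on SHAM and CTLD counts of at most 7.1.

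The basement membrane pair had smaller log2 fold changes than the type I and type III chains in both models and at both days. Col4a1 (ENSMUSG00000031502), the chain present in the widest range of basement membranes together with Col4a2, had 213, 69.8, 76.1 and 72.9 in BDL28 livers. It had 225, 128, 148 and 219.8 in BDL7 livers and 72.9, 64.5, 52.6 and 61.7 in SHAM livers. At day 7 all ligated livers lay above all SHAM livers, while at day 28 the SHAM range reached into the lower BDL28 values. The log2 fold change was 1.47 ± 0.23 at day 7, a 2.77-fold difference (adjusted p = 6.55e-06), and 0.60 ± 0.23 at day 28 (adjusted p = 0.0341). Without BDL28 replicate 1 the day 28 value was 0.22 and did not pass (adjusted p = 0.336), and without SHAM replicate 4 it was 0.59 and did not pass either (adjusted p = 0.0619). Under the DDC diet Col4a1 had 176, 132, 125 and 139.6 in DDC28 livers and 131, 159, 144 and 176 in DDC7 livers, against 64.9, 50.2, 54.8 and 84.0 in CTLD livers. Here both days were clear of the controls, with log2 fold changes of 1.18 ± 0.23 and 1.27 ± 0.23 (adjusted p = 8.19e-05 and 3.88e-05).

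Col4a2 (ENSMUSG00000031503), its partner in the same triple helix, had 68.9, 38.6, 26.0 and 33.2 in BDL28 livers. It had 79.4, 42.7, 55.8 and 71.0 in BDL7 livers and 38.5, 23.6, 24.2 and 14.2 in SHAM livers. Its log2 fold change was 1.32 ± 0.24 at day 7 (adjusted p = 4.69e-05) and 0.69 ± 0.24 at day 28 (adjusted p = 0.0187). The day 28 call was lost without BDL28 replicate 1 (0.43, adjusted p = 0.143) and without SHAM replicate 4 (0.46, adjusted p = 0.130). With the diet it had 67.4, 52.7, 58.8 and 62.5 in DDC28 livers and 40.7, 51.1, 40.9 and 61.6 in DDC7 livers, against 31.4, 35.6, 31.3 and 30.6 in CTLD livers. The diet livers lay above the controls at both days, and the change passed at day 28 (0.88 ± 0.24, adjusted p = 0.0027) and not at day 7 (0.56 ± 0.24, adjusted p = 0.058).

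Col4a1 and Col4a2 are a textbook head-to-head gene pair that shares a promoter region, and their sequences are printed to show this. Col4a1 lies on the minus strand at chr8:11312797-11313076 and Col4a2 on the plus strand at chr8:11312555-11312834 (GRCm38.p6, RefSeq), each printed on its own strand as above, with GGGCGG and CCAAT cores in capitals and cores on the opposite strand shown as CCGCCC and ATTGG.
Col4a1: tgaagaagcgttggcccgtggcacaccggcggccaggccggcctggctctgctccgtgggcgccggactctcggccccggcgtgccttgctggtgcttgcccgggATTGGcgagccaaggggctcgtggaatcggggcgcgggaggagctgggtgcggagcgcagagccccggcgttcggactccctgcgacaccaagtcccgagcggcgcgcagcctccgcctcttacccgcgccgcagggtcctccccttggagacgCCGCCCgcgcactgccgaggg
Col4a2: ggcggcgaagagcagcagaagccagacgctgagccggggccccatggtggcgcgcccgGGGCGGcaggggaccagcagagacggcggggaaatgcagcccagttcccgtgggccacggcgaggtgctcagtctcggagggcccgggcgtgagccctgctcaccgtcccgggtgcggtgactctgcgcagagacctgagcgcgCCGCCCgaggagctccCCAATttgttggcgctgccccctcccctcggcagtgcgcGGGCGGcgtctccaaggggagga
The annotated starts are 21 bases apart, and the 300-base windows share 78 bases of genome with the same letters. The GGGCGG at base 8 of Col4a2 and the one at base 10 of Col4a1 on its opposite strand are 1 site. Col4a2 held a further GGGCGG at base -192 and one at base -48 on the opposite strand, with CCAAT at base -32. Col4a1 held CCAAT on the opposite strand at base -145. Reads were counted at the 3' ends, which lie at the far ends of this pair, so the shared stretch does not mix their counts.

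The beaded filament chains differed in abundance. Col6a3 (ENSMUSG00000048126), the largest chain of type VI collagen, had 184, 16.5, 34.4 and 15.0 in BDL28 livers. It had 126, 79.3, 94.7 and 140.4 in BDL7 livers and 12.4, 22.3, 14.7 and 16.6 in SHAM livers. BDL7 livers were clear of SHAM livers, and 2 of the 4 BDL28 livers were inside the SHAM range. The log2 fold change was 2.66 ± 0.46 at day 7 (adjusted p = 2.76e-05). At day 28 it was 1.1 ± 0.46 with all livers (adjusted p = 0.0482), 0.33 without BDL28 replicate 1 (adjusted p = 0.413) and 1.11 without SHAM replicate 4 (adjusted p = 0.0759). Under the DDC diet Col6a3 had 108, 61.2, 43.4 and 90.9 in DDC28 livers and 76.2, 83.1, 86.7 and 123 in DDC7 livers, against 18.2, 9.71, 7.83 and 15.3 in CTLD livers. It rose at both days without overlap, by 2.47 ± 0.46 and 2.80 ± 0.46 on the log2 scale (adjusted p = 4.18e-05 and 1.02e-05).

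Col6a1, another type VI chain, had 21.6, 6.43, 4.64 and 11.8 in BDL28 livers. It had 12.5, 21.4, 13.0 and 21.4 in BDL7 livers and 4.13, 7.45, 3.16 and 3.56 in SHAM livers. It rose at day 7 (1.71 ± 0.50, adjusted p = 0.00639) and did not pass at day 28 (0.97 ± 0.50, adjusted p = 0.111), or without BDL28 replicate 1 (0.60, adjusted p = 0.361). In the diet model it passed at day 28 (1.59 ± 0.50, adjusted p = 0.00786) and at day 7 (1.58 ± 0.50, adjusted p = 0.00963). CTLD replicate 3 held 0 counts of Col6a1, and without that library neither diet call was kept (log2 fold change at day 7 0.87, adjusted p = 0.114). The day 28 diet call was also lost without DDC28 replicate 4.

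Col14a1 (ENSMUSG00000022371), which binds the surface of type I fibrils, did not follow the others. It had 197, 34.9, 27.9 and 32.2 in BDL28 livers. It had 162, 137, 118 and 155 in BDL7 livers and 114, 132, 159.9 and 110.3 in SHAM livers. In 3 BDL28 livers it was below every BDL7 and SHAM liver, and in BDL28 replicate 1 it was above them all. Its log2 fold change was 0.15 ± 0.35 at day 7, which did not pass (adjusted p = 0.779). At day 28 it fell, with -1.33 ± 0.35 (adjusted p = 0.00283), or -1.98 without BDL28 replicate 1 (adjusted p = 3.74e-10). By edgeR's quasi-likelihood test on recovered reads the day 28 value was -0.86 and did not pass (adjusted p = 0.0644). Under the DDC diet Col14a1 had 146, 129, 147 and 163 in DDC28 livers and 118, 132, 123 and 174 in DDC7 livers, against 196, 113, 111 and 148 in CTLD livers. The 3 ranges overlapped, and neither day passed (0.08 ± 0.35 and -0.03 ± 0.35, adjusted p = 0.875 and 0.95).

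**Figure D2:**
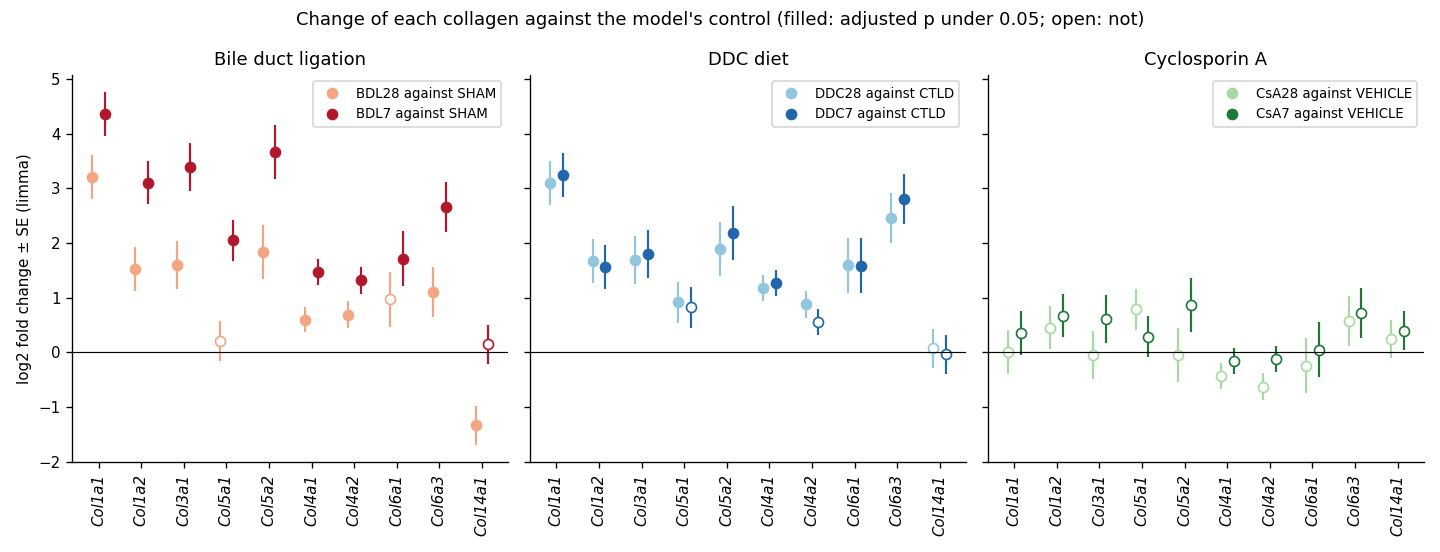
Log2 fold change with its SE from limma for the 10 collagen genes at day 28 and day 7 against the control group of each model. Filled points had an adjusted p under 0.05. In the ligation panel the day 28 values lie below the day 7 values for all 10 genes, with Col14a1 at -1.33, and in the cyclosporin panel no point is filled.

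Counted over the set, 9 of the 10 collagens were higher in BDL7 than in SHAM livers and 0 were lower, where 20.2% of all tested genes were higher. The 9 had no overlap between groups, which held in the upward direction for 19.8% of all tested genes. In BDL28 livers 7 were higher and 1 was lower than in SHAM livers (24.1% and 22.7% of all tested genes), and 2, Col1a1 and Col1a2, had no overlap (18.7%). With BDL28 replicate 1 left out the numbers were 4 higher and 1 lower, with 22.8% and 22.2% of 12545 genes tested. With the fit restricted to BDL28 and SHAM livers, which then estimates the spread from these 8 livers alone, 2 were called, Col1a1 and Col5a2, where 37.6% of all tested genes were called in either direction. In that fit Col1a2, Col3a1, Col4a1, Col4a2, Col6a3 and Col14a1 did not pass (adjusted p = 0.101, 0.104, 0.165, 0.119, 0.259 and 0.120). In DDC28 livers 9 were higher than in CTLD livers (27.9%), and 8 had no overlap (25.0%). In DDC7 livers 7 were higher (24.7%), and 9 had no overlap (23.2%). Col5a2 and Col6a1, which entered the test through cholestatic livers, are among the genes counted higher in BDL7, DDC28 and DDC7 livers. Col5a2 is also among those counted higher in BDL28 livers in each of the fits above. The filter partly set the place of both genes in these counts, so they add no support to them, and both enter the medians that follow. The median log2 fold change of the 10 genes was 1.04 in BDL28, 2.36 in BDL7, 1.63 in DDC28 and 1.57 in DDC7 livers, beside medians of 0.01 to 0.04 over all tested genes, and the BDL28 median was 0.51 without BDL28 replicate 1.

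Most of the collagens were lower late than early in ligation. From the values above, 9 of the 10 were lower in BDL28 than in BDL7 livers, where 16.7% of all tested genes were lower, and their log2 fold changes ran from -1.84 for Col5a1 to -0.62 for Col4a2. Col5a1 fell by 1.84 with an SE of 0.37 (adjusted p = 0.000307) and Col5a2 by 1.82 with an SE of 0.49 (adjusted p = 0.00488). Col3a1 changed by -1.80 ± 0.44, Col1a2 by -1.58 ± 0.40 and Col1a1 by -1.15 ± 0.40 (adjusted p = 0.00255, 0.00347 and 0.0295). The basement membrane chains fell less, Col4a1 with -0.87 ± 0.23 and Col4a2 with -0.62 ± 0.24 (adjusted p = 0.00498 and 0.0491). Col6a3 had -1.56 ± 0.46 and Col14a1 -1.49 ± 0.35 (adjusted p = 0.01 and 0.00216), and Col6a1 did not pass (-0.74 ± 0.50, adjusted p = 0.273). The 4 BDL28 and 4 BDL7 livers overlapped for all 10 genes, through BDL28 replicate 1. Without it the 9 genes stayed lower (20.1% of tested genes), and the values were more negative, with Col3a1 at -2.48, Col6a3 at -2.34 and Col4a1 at -1.25.

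Several of these day 28 against day 7 calls were close to the threshold. DESeq2 did not call Col1a1, Col4a2 and Col6a3, and edgeR did not call Col1a2 (-1.04, adjusted p = 0.0508) and Col6a3 (-0.84, adjusted p = 0.147). Col1a1, Col4a2 and Col6a3 were lost without BDL28 replicate 2 or 4. Col1a1 and Col4a2 were lost without BDL28 replicate 3 or without BDL7 replicate 1, 3 or 4. With the fit restricted to the 2 groups, 2 of the 10 were called, Col5a1 and Col5a2 (adjusted p = 0.0307 and 0.0352), where 19.4% of all tested genes were called.

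Under the DDC diet the same 3 weeks left the collagens near their day 7 levels. The log2 fold changes of DDC28 over DDC7 ran from -0.34 for Col6a3 to 0.32 for Col4a2. By limma 0 of the 10 passed, with 0 at an unadjusted p under 0.05 and 0 called by edgeR or DESeq2, while 5.70% of all tested genes were called in either direction. The difference between the day change of ligation and the day change of the diet was tested directly. It was negative for all 10 genes, from -1.93 ± 0.53 for Col5a1 (adjusted p = 0.0538) to -0.75 ± 0.71 for Col6a1 (adjusted p = 0.611). By limma 0 of 10 passed (1.48% of all tested genes), 7 had an unadjusted p under 0.05, edgeR called 0 and DESeq2 called 1. The share of all tested genes at an unadjusted p under 0.05 was not computed for this or any other comparison. Counts of collagens at that threshold, here and below, therefore have no background, and the shares beside them are for adjusted p. Without BDL28 replicate 1 the difference passed for 8 of the 10, all lower (6.52% of tested genes), among them Col5a1 (-2.50), Col1a2 (-2.37), Col14a1 (-2.25) and Col4a1 (-1.15). Col1a1 did not (-1.46, adjusted p = 0.0606), nor did Col6a1.

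**Figure D3:**
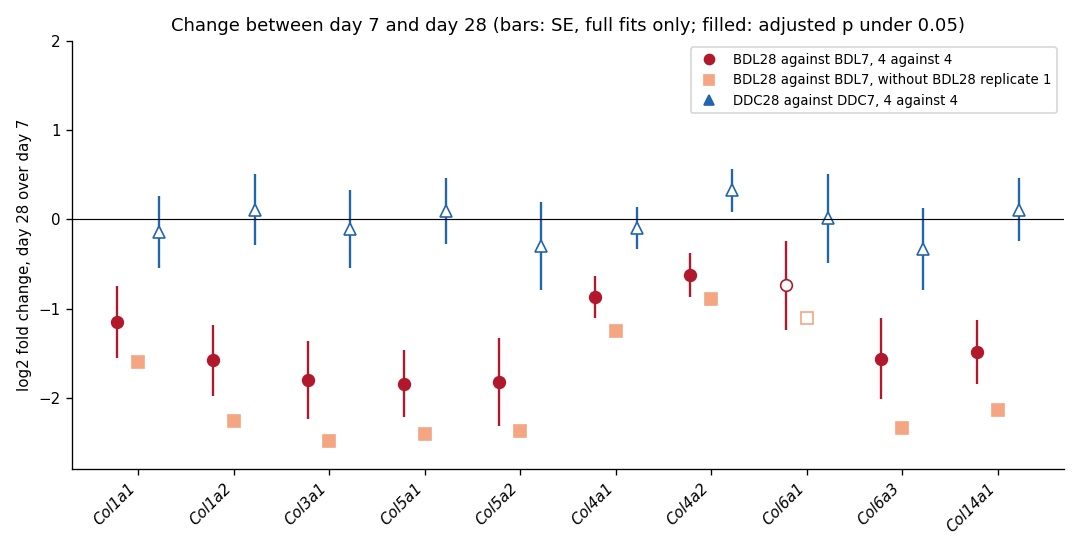
Log2 fold change of day 28 over day 7 for each collagen gene, in the ligation model with all livers (circles), in the ligation model without BDL28 replicate 1 (squares) and in the diet model (triangles). Bars are SEs of the full fits and filled symbols had an adjusted p under 0.05. The circles lie between -1.84 and -0.62, and the triangles between -0.34 and 0.32.

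The types of collagen were then compared over time. The mean log2 fold change of the 5 fibrillar genes was 1.67 in BDL28 and 3.31 in BDL7 against SHAM, that of the basement membrane pair 0.65 and 1.39, and that of the beaded filament pair 1.04 and 2.19. In the diet model the fibrillar mean was 1.85 in DDC28 and 1.92 in DDC7 against CTLD, the basement membrane mean 1.03 and 0.92, and the beaded filament mean 2.03 and 2.19. The fibrillar chains thus had the highest mean of the 3 types in ligated livers at both days, and the beaded filament pair had it in diet-fed livers at both days. The order in diet-fed livers turned when CTLD replicate 3, the liver with 0 counts of Col6a1, was left out, with fibrillar minus beaded filament changes of 0.23 in DDC28 and 0.13 in DDC7 livers, against -0.18 and -0.27 with all livers. These means are descriptions and carry no test, and Col5a2 and Col6a1 enter them from near-zero controls. Without BDL28 replicate 1 the BDL28 means were 1.09 for fibrillar, 0.32 for basement membrane and 0.46 for beaded filament genes.

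Within each liver, the mean log2 value of the fibrillar genes minus that of the basement membrane genes gave the balance of the 2 types. It was -0.25 ± 0.73 (SD, n = 4) in BDL28, 0.65 ± 0.13 in BDL7 and -1.27 ± 0.31 in SHAM livers. The BDL7 livers lay from 0.52 to 0.79 and the SHAM livers from -1.68 to -1.02, without overlap. The BDL28 livers spread from -1.19 to 0.53 and overlapped both groups, with BDL28 replicate 2 inside the SHAM range. In the diet model it was -0.04 ± 0.27 in DDC28, 0.14 ± 0.12 in DDC7 and -0.87 ± 0.30 in CTLD livers, and neither diet group overlapped its control. Its difference was therefore 1.92 for BDL7 against SHAM, 1.01 for DDC7 against CTLD and 0.83 for DDC28 against CTLD. For BDL28 against SHAM it was 1.03, and 0.77 without BDL28 replicate 1. Under cyclosporin A it was -0.61 ± 0.22 in CsA28, -0.68 ± 0.48 in CsA7 and -1.38 ± 0.34 in VEHICLE livers. The CsA28 livers lay above the VEHICLE livers without overlap, by 0.76, and the CsA7 livers overlapped them, with a difference of 0.69. The fibrillar minus beaded filament balance was 1.41 ± 0.30 in BDL28, 1.90 ± 0.37 in BDL7 and 0.78 ± 0.37 in SHAM livers. It differed from control without overlap in BDL7 (1.13), and in BDL28 (0.64, or 0.63 without BDL28 replicate 1), DDC28 (-0.18), DDC7 (-0.27), CsA28 (0.071) and CsA7 (0.17) the groups overlapped their controls.

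**Figure D4:**
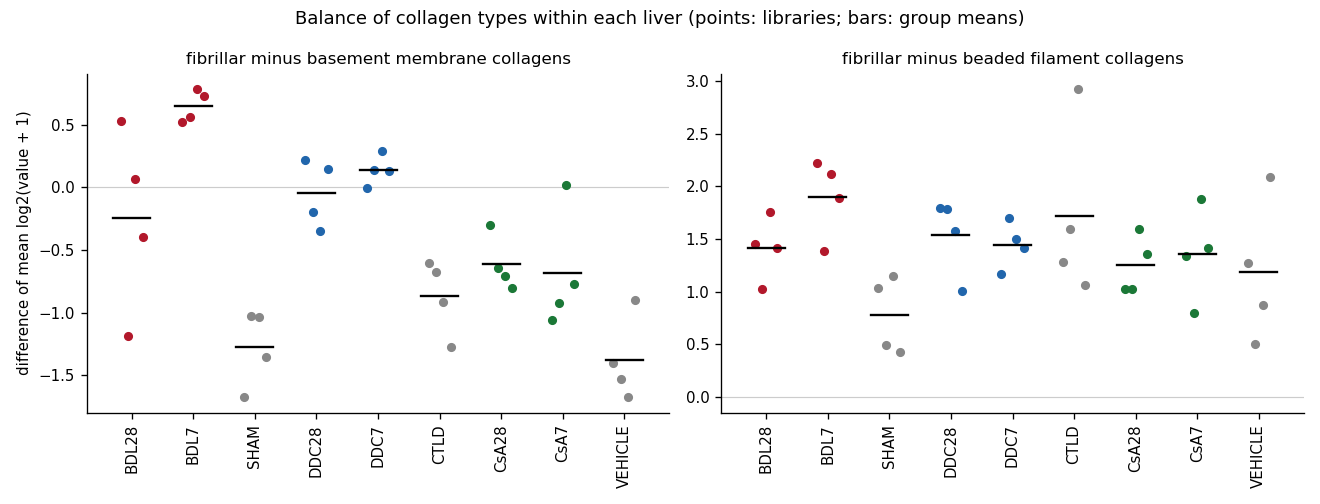
Difference between the mean log2(value + 1) of the fibrillar genes and that of the basement membrane genes (left) or the beaded filament genes (right) in each of the 36 livers. Points are libraries and bars are group means of 4. In the left panel BDL7 livers lie from 0.52 to 0.79 and SHAM livers from -1.68 to -1.02.

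Whether ligation and diet differed in their effect on these genes was tested gene by gene as the ligation effect minus the diet effect on the same day. At day 7 all 5 fibrillar genes had a larger ligation effect, by 1.59 ± 0.62 for Col3a1, 1.54 ± 0.56 for Col1a2, 1.48 ± 0.70 for Col5a2, 1.23 ± 0.53 for Col5a1 and 1.1 ± 0.57 for Col1a1. None of these passed (adjusted p = 0.11, 0.088, 0.195, 0.148 and 0.24). The controls of the 2 models differed too. The fibrillar mean log2 value was 4.04 in SHAM and 4.65 in CTLD livers, and 7.35 in BDL7 and 6.57 in DDC7 livers. For Col3a1 the SHAM livers ran from 30.3 to 42.1 and the CTLD livers from 64.4 to 96.3. For Col1a2 they ran from 37.9 to 52.6 and from 64.4 to 83.1. The share of all tested genes without overlap between SHAM and CTLD livers was not computed, so these ranges have no background to be read against. SHAM and CTLD livers overlapped for Col1a1, Col5a1 and Col5a2. The part of the controls in these differences was not tested. Over the 10 genes 0 passed by limma, edgeR or DESeq2, 5 had an unadjusted p under 0.05 (Col1a2, Col3a1, Col5a1, Col5a2 and Col4a2), and 8.46% of all tested genes were called. With the fit restricted to the 4 groups of this contrast the 5 fibrillar genes passed, with adjusted p of 0.000535 for Col1a2, 0.00774 for Col3a1, 0.0350 for Col1a1, 0.0424 for Col5a1 and 0.0498 for Col5a2, where 12.4% of all tested genes were called. In the fit over all groups Col4a2 had a difference of 0.76 ± 0.34 (adjusted p = 0.174). It was 0.20 ± 0.33 for Col4a1, 0.13 ± 0.71 for Col6a1 and -0.14 ± 0.65 for Col6a3, each smaller than its SE.

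At day 28 the ligation effect minus the diet effect did not pass for the type I and III chains, with 0.10 ± 0.57 for Col1a1, -0.14 ± 0.56 for Col1a2 and -0.10 ± 0.62 for Col3a1. These values were -0.35, -0.83 and -0.78 without BDL28 replicate 1 and did not pass (adjusted p = 0.688, 0.0987 and 0.244), and by edgeR Col1a2 and Col3a1 had the other sign with all livers (0.40 and 0.46). With all livers 0 of the 10 differences passed by limma, edgeR or DESeq2, 2 had an unadjusted p under 0.05 (Col14a1, -1.41 ± 0.50, adjusted p = 0.0704, and Col6a3, -1.37 ± 0.65, adjusted p = 0.176), and 10.3% of all tested genes were called. With BDL28 replicate 1 left out, 4 genes were lower under ligation (9.25% of tested genes). They were Col6a3 (-2.14, adjusted p = 0.000666), Col14a1 (-2.06, adjusted p = 3.35e-06), Col5a1 (-1.27, adjusted p = 0.0393) and Col4a1 (-0.96, adjusted p = 0.00666).

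Cyclosporin A left no collagen past the threshold at either day. Against VEHICLE, the log2 fold changes ran from -0.62 for Col4a2 to 0.79 for Col5a1 at day 28, and from -0.15 for Col4a1 to 0.86 for Col5a2 at day 7. By limma, edgeR and DESeq2 0 of 10 passed at both days, with 2 at an unadjusted p under 0.05 at day 28 and 0 at day 7. The treatment called few genes at all, 0.0238% of those tested at day 28 and 4.03% at day 7. Col1a1 had 25.9, 32.2, 21.9 and 30.1 in CsA28 livers and 22.3, 32.9, 88.9 and 22.1 in CsA7 livers, against 39.5, 26.8, 15.3 and 32.2 in VEHICLE livers. CsA7 replicate 3 was the highest of its group for 9 of the 10 genes, all but Col6a1, and its stellate cell markers summed to 1335, against 901 to 1123 in the other 3 CsA7 livers, a relation that was not tested.

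A few cyclosporin groups separated from VEHICLE without passing the test. Col4a1 had 51.8, 67.6, 61.8 and 62.5 in CsA28 livers and 64.8, 70.5, 95.8 and 67.8 in CsA7 livers, against 103, 80.5, 77.7 and 71.1 in VEHICLE livers. The CsA28 livers were all below the VEHICLE livers (-0.43 ± 0.23, adjusted p = 0.572; 2.64% of tested genes had no overlap in that direction). Col5a1 and Col1a2 were higher in all CsA28 than in all VEHICLE livers, with log2 fold changes of 0.79 ± 0.37 and 0.46 ± 0.40 (adjusted p = 0.512 and 0.78; 1.85%). Col4a2 had 24.6, 24.7, 24.7 and 39.1 in CsA28 livers and 33.4, 48.0, 48.3 and 32.0 in CsA7 livers, against 47.9, 34.2, 48.2 and 44.3 in VEHICLE livers, and its CsA28 value of -0.62 ± 0.24 did not pass (adjusted p = 0.379). Between CsA28 and CsA7 the values ran from -0.91 for Col5a2 to 0.51 for Col5a1, and 0 of 10 passed by any of the 3 tools, with 1 at an unadjusted p under 0.05 (2.45% of tested genes were called). Col14a1 had 129, 185, 118 and 99.3 in CsA28 livers and 142, 133, 157 and 143 in CsA7 livers, against 86.1, 84.2, 136 and 142 in VEHICLE livers, with overlap throughout.

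Ordered by group mean over the 9 groups, BDL7 was highest for every collagen but Col14a1. Col1a1 averaged 366 ± 129 (SD, n = 4) in BDL7, 203 ± 52.9 in DDC7, 189 ± 144 in BDL28 and 185 ± 54.6 in DDC28 livers. The next group was CsA7 with 41.5 ± 32.0, followed by VEHICLE with 28.5 ± 10.2, CsA28 with 27.5 ± 4.59, CTLD with 20.0 ± 2.65 and SHAM with 15.9 ± 0.761. The step between DDC28 and CsA7 was the only one in that order without overlap between neighbours. Single steps without overlap were also found for Col3a1 between CsA28 (65.0 ± 9.03) and SHAM (35.7 ± 6.05), for Col5a1 between DDC7 (25.6 ± 2.01) and CsA28 (19.4 ± 1.48), and for Col5a2 between BDL7 (49.7 ± 8.2) and DDC7 (27.1 ± 7.73). The other 6 genes had overlap at every step. Col14a1 ran from 146 ± 14.1 in DDC28, through 144 ± 10.1 in CsA7 and 143 ± 19.8 in BDL7, down to 112 ± 31.2 in VEHICLE and 72.9 ± 82.6 in BDL28 livers.

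For each type, the 5 other genes whose log2 values were most like it over the 36 livers were found by Pearson correlation among 11447 genes, as a description in which depth and the same treatments are shared by all points. Closest to the fibrillar mean were Tmsb10 (r = 0.923), a small actin-binding protein, the keratin Krt8 (0.920), the annexin Anxa2 (0.918), Vim (0.918), the intermediate filament of mesenchymal cells, and Csrp1 (0.916). Closest to the basement membrane pair were the lysosomal macrophage protein Cd68 (0.891), the receptor kinase Axl (0.887), Man1c1 (0.885), the immune signalling adaptor Tyrobp (0.879) and the membrane linker Msn (0.879). Closest to the beaded filament pair were Fstl1 (0.896), a secreted glycoprotein, Ppic (0.892), Rhoc (0.889), Uap1l1 (0.888) and Sparc (0.888), a collagen-binding matrix protein. Closest to Col14a1 were Reln (0.907), Colec11 (0.898), Lrat (0.885), Colec10 (0.856) and Ngfr (0.851), and all 5 are on the list of hepatic stellate cell markers.

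Those 5 genes were low in the same 3 BDL28 livers as Col14a1. They were picked for their likeness to it over these livers, so the shared pattern is partly set by the choice and is not a separate observation. Lrat, the enzyme that stores vitamin A as esters, had 130, 13.8, 12.1 and 21.4 normalized counts in BDL28 livers, against 65.8 to 110 in SHAM livers, and its log2 fold change was -1.69 ± 0.42 (limma adjusted p = 0.00146). Colec10, a secreted lectin, had 126, 26.6, 23.2 and 24.7 in BDL28 livers, against 216 to 248 in SHAM livers (-2.61 ± 0.31, adjusted p = 5.48e-08). The first BDL28 liver was the highest of its group for all 5 genes, as it was for the collagens. Reln had 106, 26.6, 19.5 and 21.4 in BDL28 livers, against 62.9 to 85.6 in SHAM livers, and Colec11 had 166, 38.6, 24.1 and 34.3, against 148 to 187. Over the whole stellate list, 1 of 12 tested markers was higher and 6 were lower in BDL28 than in SHAM livers, 1 and 9 without BDL28 replicate 1. The summed markers ran from 501 to 1853 in BDL28, from 885 to 1181 in BDL7 and from 1001 to 1106 in SHAM livers, and none of them was at 0 in any group. The part of stellate cell number in the Col14a1 values was not tested.

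**Figure D5:**
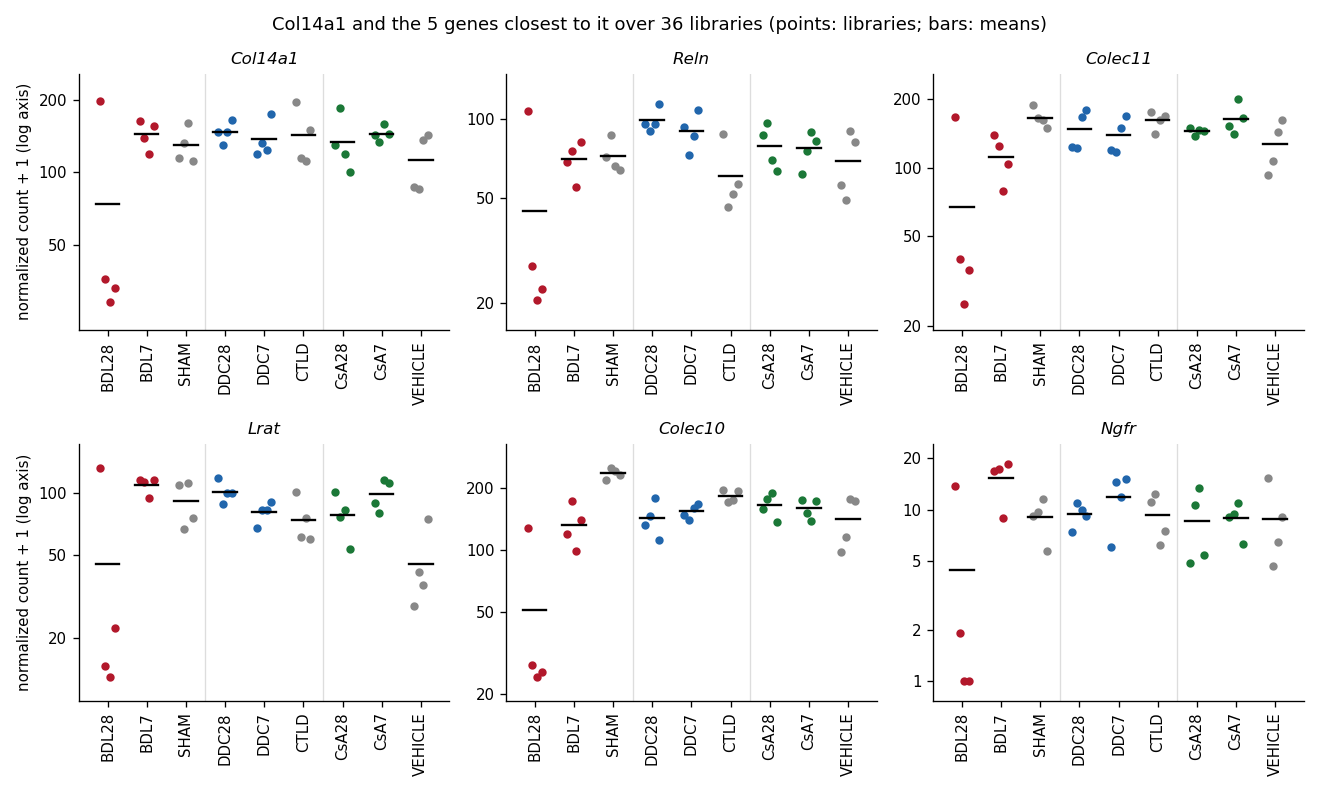
Normalized read counts plus 1, on a log axis, of Col14a1 and the 5 genes with the highest Pearson correlation to it over the 36 livers. Points are libraries and bars are group means of 4. In BDL28, 3 livers lie low and 1 lies high in every panel, with Lrat at 12.1 to 21.4 in the 3 and 130 in the other. The choice of genes by correlation partly sets this shared pattern.

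The counts of the lists below stand beside the shares of all tested genes that were called. These were 24.1% higher and 22.7% lower in BDL28, 20.2% and 18.5% in BDL7, 27.9% and 24.7% in DDC28 and 24.7% and 22.1% in DDC7 livers against their controls, and 14.0% and 16.7% in BDL28 against BDL7 livers. Of 34 other collagen chains listed, 10 were tested. In BDL28 livers 3 were higher and 3 lower than in SHAM livers, in BDL7 livers 5 and 2, in DDC28 livers 2 higher and 3 lower than in CTLD livers, and in DDC7 livers 3 and 3. Col6a2, the third common type VI chain, had log2 fold changes of 1.64 ± 0.42 in BDL28 and 2.96 ± 0.42 in BDL7 against SHAM (adjusted p = 0.00166 and 7.98e-07) and did not pass under the diet. Col4a5, a type IV chain best known from the kidney, rose in the ligation and diet groups, by 2.00 ± 0.40 in BDL28 and 2.38 ± 0.40 in BDL7. Col18a1, a basement membrane collagen of hepatocytes and vessels, fell in all 4 comparisons, with values from -0.48 to -0.21. Col27a1, a fibrillar-type chain of cartilage, fell in all 4 as well, with -2.47 ± 0.38 in DDC28 against CTLD (adjusted p = 2.78e-06).

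Genes of the machinery that makes collagen were counted next. Of 7 tested genes for procollagen cleavage and crosslinking, 2 were higher in BDL28 livers, and 6 were higher and 1 lower in BDL7, 3 and 1 in DDC28, and 4 and 1 in DDC7 livers. Lox, the lysyl oxidase that starts crosslinks between fibres, rose by 3.24 ± 0.56 in BDL28 and 4.19 ± 0.56 in BDL7 against SHAM, and by 3.48 ± 0.56 in DDC28 and 3.36 ± 0.56 in DDC7 against CTLD (adjusted p = 1.36e-05, 2.91e-07, 3.41e-06 and 8.77e-06). Loxl2 and Pcolce, an enhancer of procollagen cleavage, were lower in BDL28 than in BDL7 livers (-1.47 ± 0.33 and -1.90 ± 0.39, adjusted p = 0.000817 and 0.000318), as 4 of the 7 were. Bmp1, a protease that removes the end of procollagen, was higher there (0.55 ± 0.13, adjusted p = 0.00186).

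Of 14 tested genes for folding and hydroxylation, 4 were higher and 4 lower in BDL28, 3 and 2 in BDL7, 2 and 4 in DDC28, and 2 and 3 in DDC7 livers, shares of 14 that lie near those of all tested genes. P4ha1, a catalytic subunit of prolyl hydroxylase, fell in BDL28 (-2.30 ± 0.32, adjusted p = 4.88e-07) and in DDC28 livers (-2.26 ± 0.32, adjusted p = 4.78e-07). Ppib, a proline isomerase of the endoplasmic reticulum, fell in all 4 comparisons, with values from -1.34 to -0.61. Plod2, which hydroxylates lysines for crosslinks, rose in BDL28 (1.19 ± 0.50, adjusted p = 0.0493) and BDL7 livers (2.26 ± 0.50, adjusted p = 0.000457), and the BDL28 call was lost without BDL28 replicate 1 (0.85, adjusted p = 0.190). Serpinh1, the collagen chaperone, was lower in BDL28 than in BDL7 livers (-1.71 ± 0.38, adjusted p = 0.000927) and passed in neither against SHAM with all livers. It was lower in BDL28 than in SHAM livers without BDL28 replicate 1 (-1.33, adjusted p = 0.000851).

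Matrix proteins that bind fibrils moved in 1 direction against control. Of 12 tested, 6 were higher in BDL28, 8 in BDL7, 11 in DDC28 and 9 in DDC7 livers, and no call was in the other direction. Without BDL28 replicate 1 the BDL28 count was 3 higher and 2 lower. Elastin, Eln, rose by 2.01 ± 0.51 in BDL28 and 3.49 ± 0.51 in BDL7 livers, and the proteoglycan Vcan by 2.57 ± 0.60 and 4.06 ± 0.60. The small proteoglycan Lum and Sparc were lower in BDL28 than in BDL7 livers (-1.42 ± 0.41 and -1.06 ± 0.25, adjusted p = 0.00883 and 0.00158), as 5 of the 12 were, and 8 without BDL28 replicate 1. Among 14 tested basement membrane partners, 5 were higher and 3 lower in BDL28, 4 and 1 in BDL7, 4 and 3 in DDC28, and 4 and 2 in DDC7 livers. The BDL28 count turned to 3 higher and 5 lower without BDL28 replicate 1. Nid1, which links type IV collagen to laminin, rose by 3.09 ± 0.17 in BDL28 and 2.7 ± 0.17 in BDL7 livers and, unlike Col4a1, was not lower at day 28 than at day 7 (0.39 ± 0.17, adjusted p = 0.0724). The laminin chain Lama5 rose in all 4 comparisons and Lama3 fell in all 4.

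Of 5 tested collagen receptors, 2 were higher and 1 lower in BDL28 livers (2 and 2 without BDL28 replicate 1), and 3 were higher in each of BDL7, DDC28 and DDC7 livers. The receptor kinase Ddr1, typical of epithelial cells, rose by 3.40 ± 0.26 in BDL28 and 3.79 ± 0.26 in BDL7 livers, while Ddr2, its relative in mesenchymal cells, fell in BDL28 livers (-1.0 ± 0.34, adjusted p = 0.00888). Of 13 tested genes of TGF-beta signalling, a main inducer of collagen transcription, 11 were higher and 1 lower in BDL28 livers, 7 were higher in BDL7, and 10 were higher in each of DDC28 and DDC7 livers. Tgfb2, one of its ligands, rose by 2.98 ± 0.34 in BDL28 and 2.35 ± 0.34 in BDL7 livers, and its receptor Tgfbr2 by 1.33 ± 0.17 and 0.98 ± 0.17. In BDL28 against BDL7 livers 1 of these 13 was higher and 1 lower. Without BDL28 replicate 1 it was 1 higher and 3 lower, and against SHAM livers 9 higher and 1 lower.

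Markers of the cell types that a liver sample can hold moved in both directions. Of 3 tested myofibroblast markers, 1 was higher in BDL28, 2 in BDL7, 0 in DDC28 and 1 in DDC7 livers, and all 3 were lower in BDL28 than in BDL7 livers. Acta2, the contractile actin of myofibroblasts, had log2 fold changes of 1.65 ± 0.51 in BDL28 and 3.34 ± 0.51 in BDL7 against SHAM (adjusted p = 0.00779 and 2.97e-06), and -1.69 ± 0.51 between the days (adjusted p = 0.0111). The myofibroblast markers summed to 18.4 to 47.2 in BDL28, 42.7 to 132 in BDL7 and 13.8 to 18.6 in SHAM livers, and Cnn1 was at 0 in all BDL28, SHAM and VEHICLE livers. Of 6 tested portal fibroblast and mesothelial markers, 4 were higher in BDL28, 5 in BDL7, 5 in DDC28 and 3 in DDC7 livers. Their sums were 175 to 384 in BDL28, 329 to 389.6 in BDL7 and 98.4 to 138 in SHAM livers, with Clec3b and Pi16 at 0 in all BDL28 and SHAM livers. Of 11 tested cholangiocyte markers, 9 were higher in BDL28, 10 in BDL7, 9 in DDC28 and 6 in DDC7 livers. Of 11 tested macrophage markers, 7 were higher and 1 lower in BDL28 livers, and 10 were higher in BDL7, 9 in DDC28 and 8 in DDC7 livers. Of 12 hepatocyte markers, 1 was higher and 6 were lower in BDL28, 1 and 9 in BDL7, 0 and 10 in DDC28 and 0 and 9 in DDC7 livers, and 4 were higher and 0 lower in BDL28 than in BDL7 livers. The endothelial lists went down more than up at day 28, with 6 of 9 sinusoidal markers lower in BDL28 and 7 in DDC28 livers, and 1 of 7 vascular markers higher and 4 lower in BDL28. The part of any of these cell types in the collagen values was not tested.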

How the data were processed

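The values are the deposited table of normalized read counts (signal) over 36 liver libraries. Per the labels' protocols, RNA came from 20 mg of liver kept in RNAlater, and libraries were made with the QuantSeq 3' mRNA FWD kit, which reads 1 tag near the 3' end of a transcript, with molecular identifiers. The GRCm39 build, the aligner STAR (2.7.9a) and the counter RSEM (1.3.1) are named in the submitters' processing notes, as are DESeq2, UMI-tools (1.1.1) and Trim Galore, without order or options. In each deposited column 100% of values were whole multiples, within 0.001, of what 1 read is worth, so whole reads could be recovered, and depth is their sum.

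Values were taken as log2(value + 1), which understates changes of low genes, and fitted with limma 3.58.1 in R 4.3.3 (trend and robust options, 1 coefficient per group over all 36 libraries) for genes with at least 10 in at least 4 libraries. Benjamini-Hochberg adjustment ran over all 12596 genes of a contrast, two-sided, and a gene was called at an adjusted p under 0.05. The quasi-likelihood test of edgeR 4.0.16 and DESeq2 1.42.0 were run on the recovered reads, and the fit was tested on simulated data. The 10 collagens, the pathway and marker lists and the rule for named genes (all 10 collagens, the 5 most correlated genes per type, up to 4 genes of each list with the lowest adjusted p in BDL7 against SHAM or DDC28 against CTLD, and Serpinh1, Lox, Acta2 and Lrat) were chosen with earlier results of these data known. Of the IDs, 29121 had a symbol and 425 had none. Alternatives were other pseudocounts, filters, scalings and tools, a fit over the groups of a contrast, a replicate block and leaving out each library. Each library is 1 of the 4 mice of its group, per the labels, in 1 experiment. The main fit gave each gene 1 spread, estimated over the mice of all groups, and p-values measure a difference against it. A gene's SE is therefore the same in every comparison of a group with its control, whatever the spread of the mice compared. For Col3a1 the SE was 0.44 in BDL28 and in CsA28 against control, while the SD of its log2 values was 1.47 in BDL28 and 0.20 in CsA28 livers.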

Additional observations from a re-analysis of the deposited data

Results flagged for a closer look

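In 9 of the 90 gene and group sets of 4 livers, 1 liver lay far from the other 3 by Dixon's test on normalized counts. Of these, 5 were BDL28 replicate 1, the highest of its group with 543 normalized counts of Col1a2, 39.4 of Col5a1, 212.5 of Col4a1, 184 of Col6a3 and 197 of Col14a1. The other 4 were Col1a1 in CsA7 replicate 3 with 88.9, Col1a2 in DDC7 replicate 4 with 268, Col3a1 in CTLD replicate 1 with 96.3, and Col4a2 in CsA28 replicate 4 with 39.1, each the highest of its group. The test's rate of about 1 in 20 by chance assumes normally distributed values and independent sets. The genes were measured in the same livers and the counts were not logged, so 9 of 90 cannot be read against that rate.

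BDL28 livers differed from BDL7 livers for 9 collagens by limma, with log2 fold changes of -1.15 for Col1a1, -1.58 for Col1a2, -1.80 for Col3a1, -1.84 for Col5a1, -1.82 for Col5a2, -0.87 for Col4a1, -0.62 for Col4a2, -1.56 for Col6a3 and -1.49 for Col14a1. No control entered this comparison, and the labels give no day for SHAM livers. A change with time alone and a changed effect of ligation therefore cannot be told apart. With BDL28 replicate 1 left out all 9 remained past the threshold. With all livers edgeR called 7 and DESeq2 6, and the limma fit restricted to these groups called 2. The direct test against the day change of the diet called 0 by limma.

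For the basement membrane pair, every CsA28 liver lay below the VEHICLE mean while every BDL28 liver lay above the SHAM mean and every DDC28 liver above the CTLD mean. For Col4a2 the lowest BDL28 liver, replicate 3, had 26.0 counts against a SHAM mean of 25.1, where 1 read in that liver was worth 0.93. The SHAM livers themselves reached 38.5. The difference between the effects was 1.21 for BDL28 and 1.60 for DDC28 for Col4a1, and 1.32 and 1.49 for Col4a2, from the logs of the group means of normalized counts, and it was not tested. From means of log2 values it was 1.03 for BDL28 and 1.61 for DDC28 for Col4a1, and 1.32 and 1.51 for Col4a2, and without BDL28 replicate 1 the BDL28 values were 0.65 and 1.05.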

How the results depend on the processing

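Over 120 results for single genes and 2640 values under alternatives, 2467 kept their direction and side of the threshold, 65 lost it, 29 gained it and 79 changed sign. Of 42 called results 0 changed sign under any alternative run (limma, edgeR or DESeq2), and 65 of their 840 values lost the call. Sign changes were all in values that did not pass. With pseudocount 0.5 they were Col6a1 (-0.039) at day 7 and Col5a2 (0.0049) at day 28 in ligation minus diet. With total-count scaling, which moved the median of all genes to 0.29 to 0.39 in the ligation and diet comparisons, they were Col4a2 (0.010) in CsA7, Col3a1 (0.033) and Col5a2 (0.021) in CsA28 and Col14a1 (0.31) in DDC7. TMM gave -0.0060 and quantile normalization -0.019 for Col6a1 in DDC28 against DDC7, and quantile normalization -0.024 for Col5a1 in BDL28 against SHAM. By edgeR, Col1a1 in CsA28 was -0.022, Col14a1 in DDC28 -0.0021, and in ligation minus diet at day 28 Col1a2 was 0.40, Col3a1 0.46 and Col5a2 0.31. By DESeq2 Col1a1 in CsA28 was -0.043, Col1a2 0.40, Col3a1 0.47 and Col5a2 0.33. The causes were not tested.

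The difference in day change between the models was called for 1 gene with pseudocount 5, a filter at 20, quantile normalization or DESeq2. With a fit over the groups of a contrast only, the counts were 2 for BDL28 against SHAM, 2 for BDL28 against BDL7 and 5 for ligation minus diet at day 7. The fibrillar minus basement membrane difference of BDL7 against SHAM was 1.65 with pseudocount 5, and the fibrillar minus beaded filament one of BDL28 against BDL7 was -0.15 from summed values.

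Leaving out each library in turn gave 9 calls for BDL7, 5 to 8 for BDL28, 6 to 7 for DDC7, 7 to 9 for DDC28, 6 to 9 for BDL28 against BDL7, 0 to 4 for ligation minus diet at day 28 and 0 to 8 for the difference in day change. Ranges of single genes that crossed 0 were, in ligation minus diet at day 7, Col6a1 -0.16 to 0.85 and Col6a3 -0.33 to 0.048. At day 28 they were Col1a1 -0.35 to 0.48, Col1a2 -0.83 to 0.21, Col3a1 -0.78 to 0.35, Col5a2 -0.60 to 0.40, Col4a2 -0.46 to 0.039 and Col6a1 -0.99 to 0.10. In BDL28 Col5a1 ran from -0.36 to 0.52. In CsA7 Col1a1 ran from -0.087 to 0.57 and Col6a1 from -0.17 to 0.36. In CsA28 Col1a1 ran from -0.24 to 0.19, Col3a1 from -0.18 to 0.056 and Col5a2 from -0.32 to 0.17. In CsA28 against CsA7 Col1a1 ran from -0.55 to 0.10, Col1a2 from -0.42 to 0.051 and Col6a3 from -0.34 to 0.061. Col14a1 ran from -0.15 to 0.13 in DDC7 and from -0.029 to 0.24 in DDC28. In DDC28 against DDC7 Col1a1 ran from -0.30 to 0.0071, Col1a2 from -0.039 to 0.27, Col3a1 from -0.31 to 0.035, Col5a1 from -0.026 to 0.26 and Col6a1 from -0.37 to 0.29. Of the type balances, fibrillar minus beaded filament crossed 0 in DDC7 (-0.49 to 0.13), DDC28 (-0.39 to 0.23), CsA7 (-0.054 to 0.47), CsA28 (-0.16 to 0.37) and CsA28 against CsA7 (-0.29 to 0.071), and fibrillar minus basement membrane in CsA28 against CsA7 (-0.057 to 0.30).

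The replicate number as a block changed 1 call, Col4a2 in BDL28 against BDL7 (-0.62, adjusted p = 0.0503), for 8 calls there. The labels hold 2 sets of numbers, of which the block used those in the descriptions. Same-numbered libraries correlated between -0.131 and 0.149, and between -0.116 and 0.081 with the numbers in the titles. By the description numbers, 2 of 4 pairs were over 0.1 in BDL28 against BDL7 and none in the other comparisons. In DDC28 against CTLD 3 of 4 libraries correlated best with their own number, and at most 2 did elsewhere. Such values cannot show whether the mice were paired, and the main fit used no pairing. Without BDL28 replicate 1, chosen after seeing the data, 19 of 30 list counts stayed within 1.5 times in both directions, and 1 turned, the basement membrane partners in BDL28 against SHAM. Across all genes, edgeR called 5851 and DESeq2 5681 in BDL28 against SHAM, beside 5896 by limma.

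The limits are 4 mice per group, 1 BDL28 liver that decides many day 28 values, and reads of 0 to 10 per control library for Col5a2 and Col6a1, where changes are imprecise. Controls of both days are pooled in 1 group. Tags at 3' ends do not show splice forms, and RNA levels do not measure deposited collagen.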
